A study of Macaca mulatta with 304 samples.

Results

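CSTA, SUCNR1, PMP22 and A4GALT were followed in whole blood of irradiated rhesus macaques as 4 of the 21070 genes in the deposited count table. They were chosen by name from earlier results on these samples, in which their counts were higher after irradiation, so their levels against control are given here as a description, and counts of calls against control stand beside the share of all genes called and support nothing. All 4 passed the filter on low counts that left 13751 genes for testing. The study drew blood from 28 healthy adult animals (Macaca mulatta, Chinese sub-strain, 14 females and 14 males) before and after a single exposure of the thorax to X-rays from a linear accelerator. The lower dose (LD) group of 12 animals received 9.8 Gy and the higher dose (HD) group of 16 animals received 10.7 Gy. Control samples came from the same animals 2 days before irradiation, so no unirradiated animal was followed over time. Controls of 24 animals were analysed here, and the others (2 females and 2 males) were HD animals. By the study's methods, all animals were given an antiemetic and anaesthesia for the irradiation and tramadol or buprenorphine in the weeks after it, and those with rapid breathing received dexamethasone. The part of these agents in the values below was not tested.

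The 4 genes encode proteins of unlike function. CSTA (cystatin A, also called stefin A) is a cytosolic inhibitor of cysteine cathepsins, known from the cornified layer of skin and also made in myeloid cells. SUCNR1 is the G protein-coupled receptor for succinate, an intermediate of the citric acid cycle, and is related in sequence to the P2Y nucleotide receptors. PMP22 is a small tetraspan membrane protein of compact myelin in peripheral nerve, whose gene is duplicated in a common inherited neuropathy, and it was also described as a gene of growth arrest. A4GALT is the galactosyltransferase that makes globotriaosylceramide, the CD77 or Pk antigen and the receptor of Shiga toxin.

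On the Mmul_10 assembly, which the authors also used, CSTA lies on chromosome 2 from 153970849 to 153987384 on the minus strand, with 3 exons of 486 bases in all. SUCNR1 lies on the same chromosome from 54107670 to 54118661 on the plus strand (4239 exon bases). PMP22 lies on chromosome 16 from 14997682 to 15033184 on the minus strand (2577 exon bases), and A4GALT on chromosome 10 from 8765390 to 8794096 on the plus strand (2615 exon bases). The uncharacterised gene LOC114676420 overlaps an end of CSTA on the opposite strand and is not listed in the count table. LOC114673328, from 15006047 to 15006144 on chromosome 16, lies within PMP22 on the same strand and is not listed there either. The libraries were stranded, but the sources do not state whether counting used the strand, so reads of LOC114676420 and CSTA in the overlap cannot be told apart.

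Counts were analysed in 304 samples: 24 controls, 272 samples of 15 scheduled days from Day 3 to Day 270, and 8 samples drawn on other days. Depth, as the sum of the counts of a library, lay between 2840219 and 23638161 reads with a median of 8227563. The number of samples fell from 28 on Day 30 to 17 on Day 90, 9 on Day 150 and 6 from Day 180 on, of which 5 were LD animals and 1 was an HD animal. Library names carry a number, and the sources do not say what it means. The numbers fell into a lower range (120 samples), a higher range (34 samples) and the number 0 (150 samples), with median depths of 12313370, 7104570 and 6904803 reads. Of the controls 20 were of the lower range and 4 had the number 0, whereas from Day 30 on no sample was of the lower range, so day and library number cannot be told apart for most animals. In 5 libraries (B2007 on Day 40, B2507 on Day 120, B1502 on Day 150, B1503 and B2502 on Day 270) the median Spearman correlation with the other samples was 0.848 to 0.889, against a median of 0.956 over all samples. On Day 60 the library of B1503 held collagen transcripts, with 506.7 CPM summed over 8 genes of fibroblasts and endothelium against a median of 1.88 on that day. Folds without the libraries of low correlation on Days 40, 150 and 270 are given for some genes in the account of the called genes. For the Day 60 library of B1503, only the dose differences are given without it. In whole blood, a larger share of a cell type and more RNA per cell cannot be told apart.

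The 4 genes had been grouped as progressively rising, but their courses differed. Only the daily medians of CSTA over all animals drawn climbed over several months, from Day 30 to Day 150. On Days 30, 40 and 60 these medians were 2.63, 3.78 and 7.99 CPM in HD animals, but 1.85, 2.38 and 1.72 CPM in LD animals. Levels are given as CPM, counts scaled to a common library size by the upper quartile, and folds are those of edgeR with each animal set against its own control. Over control and the 15 scheduled days, Spearman's correlation of the daily mean log2 CPM with the day was 0.88 for CSTA, 0.81 for A4GALT, 0.44 for SUCNR1 and -0.27 for PMP22 (16 means that share animals, a description). CSTA went up early and again late, SUCNR1 was at its early level by Day 3, PMP22 was highest on Day 40, and A4GALT was at or slightly under control between Day 6 and Day 21. The comparisons by day share the control samples and are therefore not independent of each other.

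**Figure D1:**
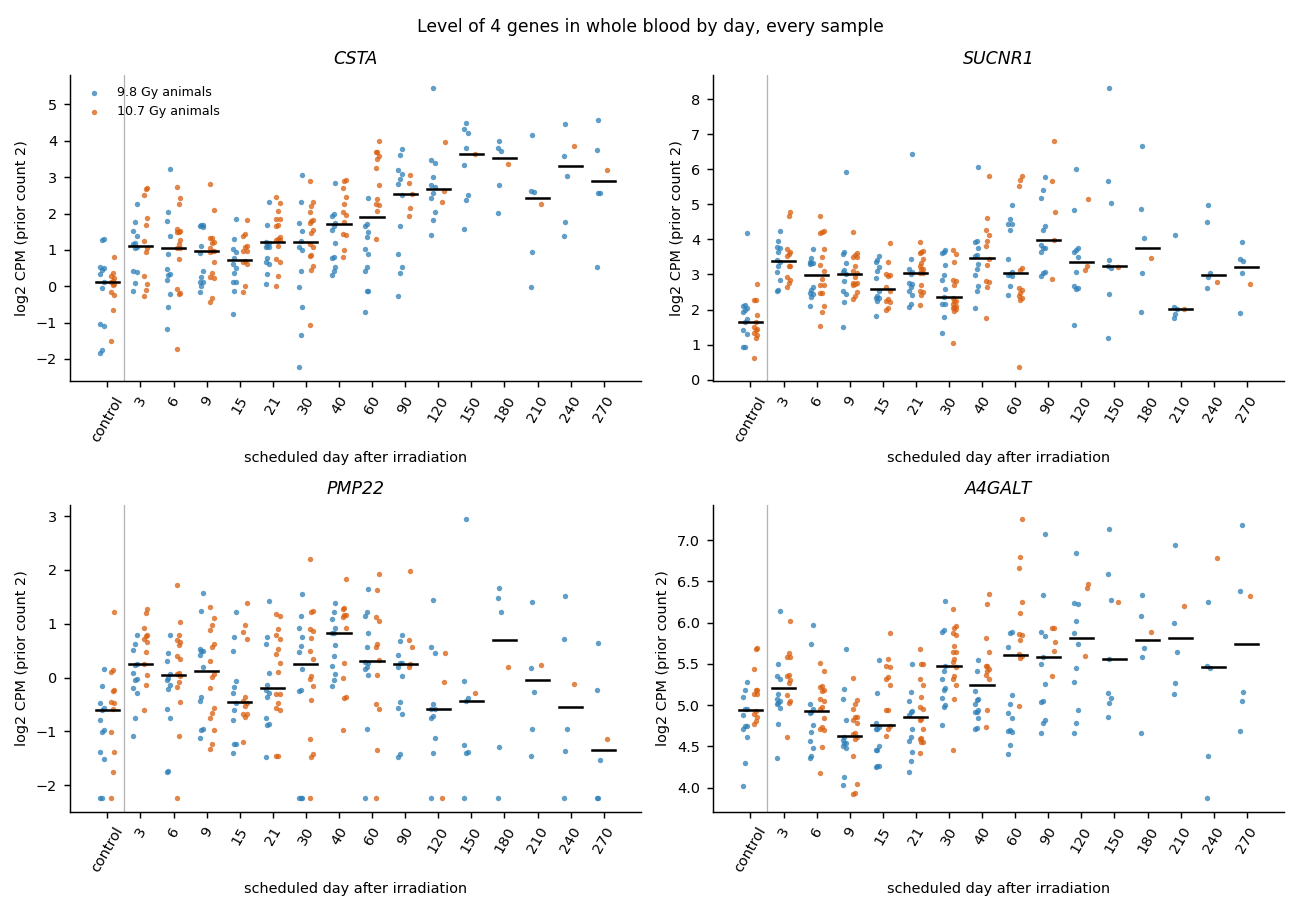
Level of the 4 genes in every control and scheduled sample, as log2 CPM with a prior count of 2, by day (black bars: medians; blue: 9.8 Gy animals; orange: 10.7 Gy animals). The CSTA median is highest on Day 150, those of SUCNR1 are already higher on Day 3, PMP22 peaks on Day 40, and A4GALT dips on Day 9 before it is higher from Day 30 on.

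CSTA had the largest change of the 4. In controls its level was 0.0680 CPM at the lowest, 0.870 at the median and 2.25 at the highest (n = 24), which is 1 to 31 reads per library. On Day 3 the same 24 animals had 0.623, 1.95 and 6.25 CPM, and 20 of them were above their own control. The groups overlapped on that day, with 9 of 24 samples above the highest control. Up to Day 30 the median stayed near this level, with 1.45 CPM on Day 15 and 2.09 on Day 30, when 1 library held no CSTA read. On Day 40 all 24 animals were above their own control (1.03 to 7.37 CPM, median 3.04). On Day 90 the median was 5.599 CPM (0.610 to 13.4, n = 17) and on Day 120 it was 6.20 (2.44 to 43.1, n = 14). On Day 120 all 14 samples were above the highest control, as were all 9 on Day 150 (2.79 to 22.1, median 12.2) and all 6 on Day 180 (3.82 to 15.6, median 11.5). On Day 210 the range of the 6 samples reached down into the controls (0.763 to 17.7, median 5.19). On Day 270, 5 of 6 samples were above the highest control (1.23 to 23.6, median 7.39). The log2 fold change over control was 1.29 ± 0.25 (standard error) at Day 3, 0.83 ± 0.21 at Day 15, 1.92 ± 0.18 at Day 40, 3.19 ± 0.41 at Day 120, 4.01 ± 0.43 at Day 180 and 3.65 ± 0.70 at Day 270. With the library number range as a covariate the late values were smaller, at 3.15 on Day 180, 1.89 on Day 210 (3.00 without it) and 2.92 on Day 270. The 6 animals of these days all had controls of the lower range, and none of their samples on these days was of that range. Within these animals range and day cannot be told apart, so these values do not separate them.

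The later CSTA levels are of fewer animals, so the 6 animals drawn to Day 270 were also followed on their own. Their median was 0.690 CPM in control and 1.11, 3.70, 1.68, 5.55 and 11.5 CPM on Days 3, 30, 60, 90 and 180. In these 6 animals the medians of Days 90 and 180 were above those of Days 3, 30 and 60, and that of Day 60 was below that of Day 30. This is a description, since the genes were chosen for higher counts after irradiation. Within these animals the steps were not even: from Day 180 to Day 210, 2 of 6 went up (median step -1.25 on the log2 scale), and from Day 210 to Day 240, 4 of 6 went up (1.71). Over all 28 animals, 27 had a higher CSTA level in the last than in the first scheduled sample. In the 4 HD animals without a control, CSTA was higher in the last than in the first sample in 3: B2006 went from 0.0855 CPM on Day 6 to 12.8 on Day 60, B2506 from 1.47 to 5.96 on Day 120 and B2507 from 1.87 to 15.5 on Day 120, while B2008 went from 2.02 to 1.59 on Day 30. The Day 6 value of B2006 was 1 read, and on Day 9 the same animal had 2.28 CPM (25 reads). The 4 animals without a control did not enter the comparison with control.

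SUCNR1, the succinate receptor, was higher within 3 days. Its controls had 1.34, 2.89 and 17.95 CPM (lowest, median and highest), and the highest came from animal B1003 while the next was 6.42. On Day 3 the values were 5.58, 10.2 and 27.3, and 23 of 24 animals were above their own control. Apart from B1003, which went from 17.95 to 10.4 CPM, all animals were higher, and the ranges of control and Day 3 overlapped, with 3 of 24 samples above the highest control. The median went down to 4.87 CPM on Day 30 (1.85 to 12.8, n = 28), back to 10.97 on Day 40 (3.17 to 67.6, n = 24) and to its highest value of 15.7 on Day 90 (7.09 to 112.4, n = 17), when all 15 animals with a control were above it. From Day 90 to Day 120 the level went up in 4 of 14 animals. On Day 210 it was close to control, with a median of 3.83 CPM (3.21 to 17.2, n = 6) and 3 of 6 animals above their own control. The log2 fold change over control was 1.71 ± 0.18 (standard error) at Day 3, 0.85 ± 0.16 at Day 30, 2.45 ± 0.30 at Day 90, 0.22 ± 0.48 at Day 210 and 0.99 ± 0.31 at Day 270. With the library number range as a covariate it was 3.11 on Day 90 and 2.82 on Day 150, against 2.18 without. On Day 150 all 9 samples had the number 0, and the controls of these animals were all of the lower range. Within these animals range and day cannot be told apart.

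Single animals reached SUCNR1 levels far above the rest, and B1003 held 4 of the 7 highest of all samples. It had 60.2, 87.4, 318 and 102.3 CPM on Days 9, 21, 150 and 180, but 5.573, 5.81 and 3.455 CPM on Days 15, 120 and 210. EPX, the eosinophil peroxidase, was at 136.5, 543 and 130.9 CPM in B1003 on Days 21, 150 and 180 and at 1.00 CPM on Day 120. On Day 9, however, EPX was at 10.3 CPM in this animal. The other high values were 112.4 CPM in B2504 on Day 90, 67.6 in B1505 on Day 40 and 64.01 in B1501 on Day 120. Without B1003 the log2 fold change of SUCNR1 was 1.87 on Day 150, against 2.18 with it.

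**Figure D2:**
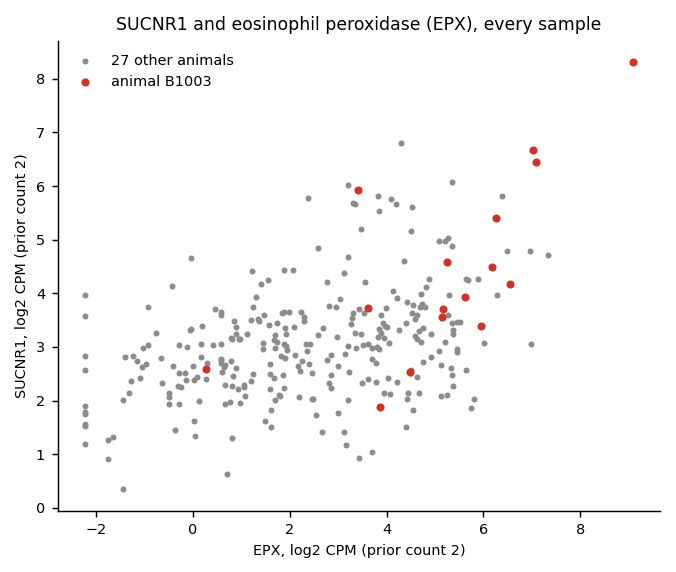
SUCNR1 against EPX in all 304 samples, both as log2 CPM with a prior count of 2 (red: animal B1003; grey: the other animals). Samples of B1003 hold the highest pair of values, and SUCNR1 spreads over several log2 units at any level of EPX.

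PMP22 was the least abundant of the 4, and its values carry the largest counting error. Controls held 0 to 31 reads per library (median 5.5), which is 0.00, 0.449 and 2.11 CPM at the lowest, median and highest. On Day 3 the values were 0.258, 0.982 and 2.21 CPM, with 23 of 24 animals above their own control. On Day 40 they were 0.298, 1.55 and 3.37, again with 23 of 24 above. Only 4 of these 24 samples were above the highest control, which came from B2007, and the groups overlapped on every day. From Day 120 on the median was between 0.184 CPM (Day 270) and 1.52 CPM (Day 180), and samples without a PMP22 read were found on Days 120, 150, 180, 240 and 270. The log2 fold change over control was 1.27 ± 0.22 (standard error) at Day 3, 1.75 ± 0.27 at Day 40, 1.31 ± 0.39 at Day 90, 0.74 ± 0.55 at Day 120 and -0.69 ± 0.66 at Day 270. On Day 150 it was 0.58 (0.61), and 0.03 without B1003, which had 7.51 CPM against at most 0.748 in the other 8 animals.

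A4GALT, the CD77 synthase, was the most abundant and changed least. Its controls had 16, 30.5 and 51.4 CPM, with a median of 361 reads. It was slightly higher on Day 3 (20.3, 36.7 and 70.3 CPM, 16 of 24 animals above their own control) and lower on Day 9 (14.9, 24.6 and 50.96 CPM, 6 of 24 animals above). Its sign on Day 6 depended on the scaling, with a log2 fold change of -0.04 by upper quartile 0.02 by TMM and 0.01 by DESeq2. Between Day 21 and Day 30 it went up in 28 of 28 animals, by a median of 0.56 on the log2 scale, to 21.7, 44.2 and 76.2 CPM. All Day 30 libraries had the number 0, and the step was also seen in the 8 animals whose Day 21 library had that number (8 of 8 higher, 0.03 to 0.91 on the log2 scale). It was larger in the other animals, with medians of 0.61 (lower range) and 0.77 (higher range) against 0.34. The median was 56.1 CPM on Day 120 (25 to 114.3, 8 of 14 samples above the highest control) and 57.7 on Day 270 (25.7 to 146, n = 6). The log2 fold change over control was 0.27 ± 0.09 (standard error) at Day 3, -0.27 ± 0.10 at Day 9, 0.50 ± 0.11 at Day 30, 0.84 ± 0.14 at Day 120, 1.09 ± 0.21 at Day 150 and 0.95 ± 0.31 at Day 270. In the 4 animals without a control A4GALT was higher in the last than in the first sample in each. The library of B1502 on Day 150, which stood apart, held the highest value of that day (141 CPM), and without it the log2 fold change was 0.96.

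**Figure D3:**
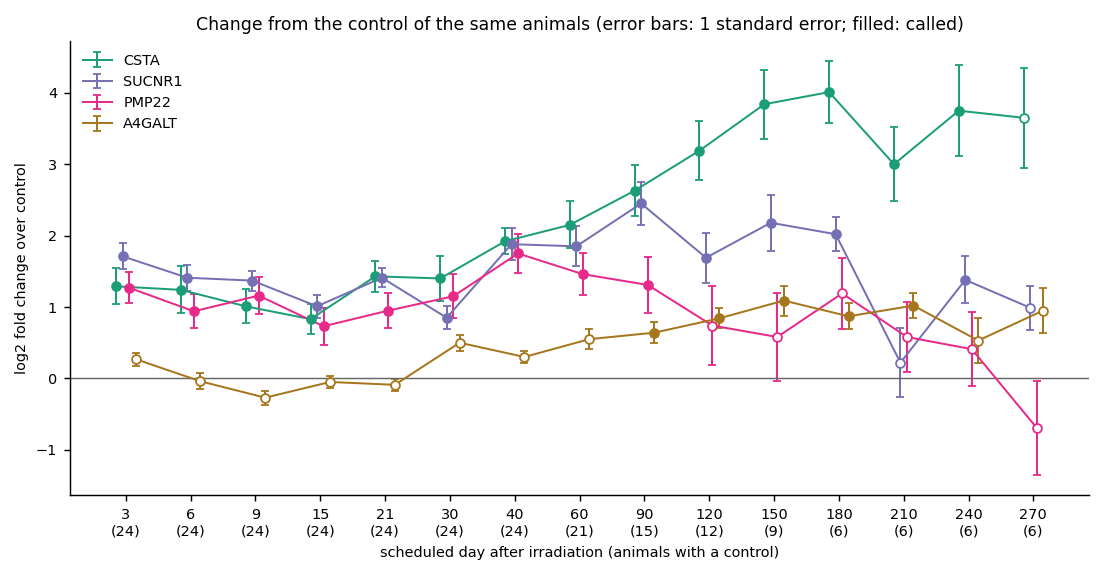
Log2 fold change of each gene over the control of the same animals by scheduled day, with the number of animals in brackets, error bars of 1 standard error, and filled points where the gene was called. CSTA leads from Day 60 on and reaches 4.01 on Day 180, SUCNR1 peaks at 2.45 on Day 90, PMP22 at 1.75 on Day 40, and A4GALT at 1.09 on Day 150.

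A gene was called at an adjusted p of at most 0.05 over all genes tested and a fold of at least 1.5. CSTA was called on 14 of 15 days, SUCNR1 on 13, PMP22 on 9 and A4GALT on 5. On each day from Day 3 to Day 60, CSTA, SUCNR1 and PMP22 were called. Of all genes tested, 6.89% (Day 3), 6.04% (Day 6), 5.15% (Day 9), 5.11% (Day 15), 7.65% (Day 21), 4.57% (Day 30), 4.07% (Day 40) and 2.31% (Day 60) were called higher. On Day 90 all 4 were called, against 3.87% of all genes. On Days 120, 150 and 180 all but PMP22 were called, against 12.7%, 12% and 8.81%. CSTA and A4GALT were called on Day 210 (12.8% of all genes), and CSTA and SUCNR1 on Day 240 (3.26%). On Day 270 none was called by edgeR, and 0% of genes were called higher (1 gene was called lower), although 4060 genes had an unadjusted p under 0.05 and DESeq2 called 1393 genes higher. Since the 4 genes were chosen for these values, nothing is read from the counts. Without the libraries that stood apart on Days 40, 150 and 270, each left out alone, the folds of the 4 genes kept their sign. On Day 40 without B2007 the log2 fold change of PMP22 was 1.91 and that of A4GALT 0.26. On Day 150 without B1502 that of CSTA was 3.71. On Day 270 that of CSTA was 3.08 without B1503 and 3.6 without B2502, and that of A4GALT 0.66 and 0.85. B2507 had no control and entered no fold. The late calls depended on single animals: without B1003, 700 genes were called higher on Day 270, CSTA (log2 fold change 4.29), SUCNR1 (1.26) and A4GALT (1.15) among them. SUCNR1 was not called on Day 240 without B1004, B1502 or B1503, and PMP22 was called on Day 180 without B1505.

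Whether the levels differed between doses was tested, since the genes had been chosen for their level against control and not by dose. On Day 60, the last day with 12 animals of each dose, CSTA and A4GALT were higher in HD than in LD animals. Day 60 was also the last draw of HD animals B2002, B2003, B2006, B2505 and B2508. Among LD animals the earliest last draw was on Day 102 (B1504). These HD animals had the highest CSTA of the day, at 11.1, 11.8, 12.75, 15.8 and 12.74 CPM. Their A4GALT was 111.1, 31.5, 57.6, 153 and 55.1 CPM. The part of nearness to the last draw in the dose differences was not tested. CSTA was 0.398, 1.72 and 5.18 CPM (lowest, median and highest) in LD and 2.23, 7.99 and 15.8 in HD animals, and 7 of 12 HD samples were above every LD sample. The log2 difference was 2.06 (standard error 0.36), with an adjusted p = 0.00114 in edgeR's quasi-likelihood fit with sex as a covariate. A4GALT was 21.0, 29.2 and 59.2 CPM in LD and 31.5, 57.8 and 153 in HD animals, with 5 of 12 above every LD sample and a log2 difference of 1.06 (standard error 0.24, adjusted p = 0.00327). Many genes differed on this day, 18% of those tested (1271 higher and 1201 lower in HD animals, or 1544 and 842 with TMM and 1734 and 848 by DESeq2). SUCNR1 (medians 9.46 in LD and 5.81 in HD animals) had a fitted log2 difference of 0.26, with an interval of 2 standard errors from -0.74 to 1.26. In HD animals SUCNR1 was spread widely, from 1.06 to 56.4 CPM, and 3 of 12 were above every LD sample, while the difference of the mean log2 CPM was -0.41, opposite in sign to the fitted value. PMP22 (1.00 and 1.16 CPM) had a difference of 0.03, with an interval from -0.93 to 1.00. Neither passed the threshold (adjusted p = 0.722 and 0.967).

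**Figure D4:**
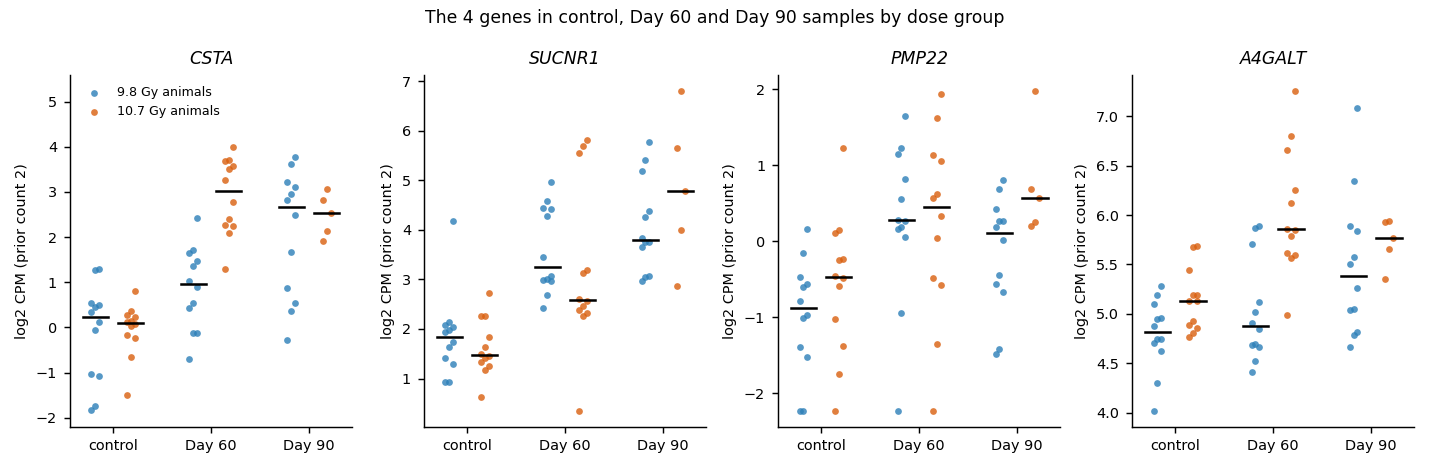
The 4 genes in control, Day 60 and Day 90 samples of 9.8 Gy (blue) and 10.7 Gy (orange) animals, as log2 CPM with a prior count of 2 (bars: medians; 12 animals of each dose in control and on Day 60, 12 and 5 on Day 90). CSTA and A4GALT have higher medians in 10.7 Gy animals on Day 60, and the dose groups overlap on both Day 60 and Day 90.

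Both differences of Day 60 were looked at in other ways, some added after the data were seen. As the change from each animal's control (12 LD and 9 HD animals), CSTA went up by 0.98 ± 0.99 in LD and 3.03 ± 0.95 in HD animals on the log2 scale (SD), a fitted difference of 2.21 (standard error 0.48, adjusted p = 0.00148 by edgeR). A4GALT went up by 0.24 ± 0.37 and 0.97 ± 0.76, a difference of 0.74 (standard error 0.24, adjusted p = 0.0204). In controls A4GALT was already 35.95 ± 8.47 CPM in animals later given the higher dose and 28.3 ± 6.56 in the others (SD, n = 12 each), a log2 difference of 0.35 (standard error 0.14, p = 0.0190, adjusted p = 0.574 by edgeR), which did not pass the threshold. No gene passed in controls by edgeR (0%, 1087 genes at an unadjusted p under 0.05, and 10 called by DESeq2). All 4 samples of the higher library number range on Day 60 were of LD animals. In the 20 samples with the number 0, CSTA differed by 1.98 (adjusted p = 0.00919) and A4GALT by 0.88 (adjusted p = 0.0280). Without the library of B1503 that held collagen transcripts the differences were 1.99 and 1.04. The summed neutrophil markers also differed between doses on Day 60, at a median of 1489 CPM in LD (473 to 4247) and 3865 in HD animals (1913 to 8350), as did the monocyte markers, at 1303 (602 to 3289) and 2794 (1376 to 5470). The macrophage sum was 5.46 (1.97 to 19.5) in LD and 15.97 (4.71 to 26.4) in HD animals, while the T cell sum (914 and 535) and the B cell sum (658 and 414) were lower in HD animals. The part of these cells in the differences of CSTA and A4GALT was not tested.

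On Day 90 the same 12 LD animals but only 5 of the HD animals of Day 60 were drawn. On Day 60 these 5 had 2.23, 4.02, 4.56, 5.02 and 6.63 CPM of CSTA, and the 7 not drawn on Day 90 had 4.52, 9.35, 11.1, 11.8, 12.74, 12.75 and 15.8, so the doses of the 2 days are not compared over the same HD animals. On Day 90 CSTA was 0.610 to 13.4 CPM in 12 LD animals (median 6.14) and 3.57, 4.19, 5.599, 6.91 and 8.21 in 5 HD animals. A4GALT had a median of 41.5 CPM in LD and was at 40.7, 50.4, 54.4, 60.7 and 61.03 in HD animals. In the 17 animals drawn on both days, the step from Day 60 to Day 90 was lower in HD than in LD animals by 0.99 for CSTA (standard error 0.59, adjusted p = 0.279 by edgeR) and by 0.77 for A4GALT (standard error 0.28, adjusted p = 0.118). For SUCNR1 it was higher in HD animals by 1.79 (standard error 0.64, adjusted p = 0.118). None of these passed the threshold, and of all genes tested none did by edgeR (0%, with 3597 at an unadjusted p under 0.05 and 733 called by DESeq2).

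Before Day 60 the doses were tested over 4 days together and in the change to Days 30 and 40, and no difference of the 4 genes passed. Over Days 6, 9, 21 and 30, when all 28 animals were drawn, the log2 difference of HD and LD animals was 0.25 for CSTA, -0.19 for SUCNR1, 0.32 for PMP22 and 0.14 for A4GALT (standard errors 0.23, 0.28, 0.29 and 0.13, adjusted p from 0.906 to 0.948 by edgeR). No gene was called by edgeR in this comparison (0%, with 854 at an unadjusted p under 0.05 and 1 called by DESeq2). In the change from control to Days 30 and 40 the doses differed by 0.65 for CSTA (standard error 0.40, interval of 2 standard errors from -0.15 to 1.45, adjusted p = 0.650), with smaller values of no constant sign for the others, and 0.0509% of genes were called. Days 3 and 15, and Day 40 on its own, were not tested for dose. A4GALT was at a median of 38.6 CPM in HD and 24.25 CPM in LD animals on Day 15, with 12 of 12 HD samples above the LD median, and at 43.8 and 31.2 CPM on Day 40, with 4 of 12 above every LD sample.

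In the comparisons of sex that were run, none of them later than Day 60, no difference of the 4 genes was called. In controls the log2 difference of females and males was -0.56 for SUCNR1 (standard error 0.32, adjusted p = 0.999 by edgeR) and smaller in size for the others, and 0.0654% of genes were called. Over Days 6, 9, 21 and 30 SUCNR1 was lower in females by 0.77 (standard error 0.28, p = 0.0111, adjusted p = 0.939), with medians of 5.97 and 10.5 CPM on Day 6 and 4.39 and 6.32 on Day 30 in females and males, and 0.0654% of genes were called. The males include B1003. On Days 40, 90 and 120, outside this test, SUCNR1 medians were higher in females, at 13.5, 23.9 and 11.9 CPM against 9.05, 13.4 and 7.07. On Day 150 they were 8.94 CPM in 6 females and 32.7 in 3 males. On Day 60 the differences ran from -0.61 (SUCNR1) to 0.52 (PMP22), none past the threshold, and 0.0291% of genes were called. Days after Day 60 were not tested for sex. CSTA medians in females and males were 3.88 and 6.91 CPM on Day 90, 5.82 and 6.55 on Day 120, and 15.3 and 4.94 on Day 150. On Day 180 CSTA was 10.0 to 15.6 CPM in 4 females and 3.82 to 6.69 in 2 males. A4GALT medians were 76.8 and 32.4 CPM on Day 150 and 81.7 and 30.6 on Day 270.

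A total of 8 animals gave a sample on an unscheduled day, which by the study's methods are final samples of animals euthanised between scheduled draws. Compared with the same animal's last scheduled draw 4 to 22 days before, CSTA was higher in 3 of 8, from a log2 difference of -1.49 in B1504 (11.96 to 4.11 CPM, Days 90 and 102) to 1.87 in B2501 (4.52 to 17.1 CPM, Days 60 and 77). SUCNR1 was higher in 4 of 8, and it dropped most in B2004 (46.2 to 4.94 CPM, Days 60 and 71) and B2504 (112.4 to 21.1 CPM, Days 90 and 94), both HD animals. A4GALT was higher in 5 of 8, within -0.40 to 0.69 on the log2 scale. The fitted log2 differences were -0.08 for CSTA, -0.57 for SUCNR1, -0.40 for PMP22 and 0.16 for A4GALT (standard errors 0.34, 0.41, 0.61 and 0.16, adjusted p = 1.00 for each by edgeR). No gene was called by edgeR (0%, with 248 at an unadjusted p under 0.05 and 0 called by DESeq2).

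On Day 30, when all 28 animals were drawn, the level was set against the day of the animal's last draw, with dose and sex as covariates. Per 30 days of longer follow-up, CSTA was higher by 0.19 on the log2 scale (standard error 0.10, p = 0.0807, adjusted p = 0.999 by edgeR) and A4GALT by 0.06 (standard error 0.04, p = 0.0931, adjusted p = 0.999). SUCNR1 and PMP22 had slopes of 0.00 and 0.09. No gene passed by edgeR (0%, with 445 at an unadjusted p under 0.05 and 0 by DESeq2). On Day 40, with 11 samples of the higher library number range and 13 of the number 0, the largest difference between the ranges was 0.56 for SUCNR1 (standard error 0.40, adjusted p = 0.770), and that of CSTA was -0.24 (standard error 0.33, adjusted p = 0.879). No gene was called by edgeR (0%, with 826 at an unadjusted p under 0.05 and 1 called by DESeq2).

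Genes of related pathways were counted by list. Counts over each list stand beside those over all genes, of which 12.7% were higher and 19.1% lower on Day 120 (median log2 fold change -0.15, and -0.01 with the size factors of DESeq2, by which 2377 genes were higher and 1903 lower). On the other days 4.62% (Day 3), 1.33% (Day 30) and 3.19% (Day 90) of genes were lower. Of 14 tested cathepsins and other cystatins, 5, 1, 0 and 4 were higher on Days 3, 30, 90 and 120, and 0, 0, 1 and 2 were lower. CSTB, the other stefin, rose from 23.1 ± 7.98 to 51.6 ± 20.6 CPM on Day 3 (SD, n = 24), which is 1.15 ± 0.07 (standard error) on the log2 scale at an edgeR adjusted p = 2.29e-13, higher in 24 of 24 animals, and was named here after its value was seen. On Day 120 the secreted cystatin C gene CST3 and the cathepsin genes CTSB, CTSS and CTSZ were called higher (0.60, 0.65, 0.78 and 0.66), while CTSF (-1.18) and CTSW (-0.83), a cathepsin of cytotoxic lymphocytes, were called lower.

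Of 16 tested genes of succinate metabolism and the citric acid cycle, none was called higher on Days 3, 30, 90 or 120 by edgeR, though 1 was on Day 120 by DESeq2 and with TMM. On Day 120 the median of the 16 was -0.42, beside -0.15 over all genes tested, and 4 of the 16 were lower. This share is near the 19.1% of all genes called lower, so nothing is read from the count. Among the 4 were SDHAF1, an assembly factor of succinate dehydrogenase (-1.20, standard error 0.24, lower in 12 of 12 animals), the mitochondrial dicarboxylate carrier gene SLC25A10 (-0.99, 0.26) and the succinyl-CoA ligase gene SUCLG2 (-0.78, 0.18). Of the 11 tested nucleotide receptor genes related to SUCNR1, 4, 0, 3 and 4 were higher on the same days, and P2RY10 was lower on Day 120 (-0.89). On Day 120 P2RY13 rose from 70.9 ± 26.7 to 248.7 ± 106.6 CPM (SD, n = 12), which is 1.79 ± 0.21 (standard error) on the log2 scale at an edgeR adjusted p = 2.31e-05, higher in 12 of 12 animals. P2RY2 (1.41), P2RY12 (1.39) and P2RY14 (0.90) were also called on that day. P2RY2 was called on Days 3, 90 and 120, and none of these receptor genes was called on Day 30, when SUCNR1 itself was at its lowest median after irradiation before Day 210.

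Of 8 tested genes of the PMP22 family and of myelin, 1, 1, 2 and 3 were higher on these days, and none was lower. MPZL3 (1.21) and the plasmolipin gene PLLP (0.81) were among those called on Day 120, when PMP22 itself was not, and PLLP was also called on Day 3 (1.41). Of 13 tested genes around A4GALT in globoside synthesis and breakdown, 1, 0, 3 and 4 were higher, and none was lower by edgeR. On Day 120 B3GALNT1, which turns the product of A4GALT into globoside, rose from 15.65 ± 7.67 to 53.2 ± 34.6 CPM (SD, n = 12), which is 1.61 ± 0.30 (standard error) on the log2 scale at an edgeR adjusted p = 0.000565, higher in 12 of 12 animals. The lactosylceramide synthase gene B4GALT5 had 1.59 (standard error 0.28, higher in 11 of 12) and TMEM165, a Golgi ion transporter that glycosylation needs, 0.96 (0.14, 12 of 12).

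**Figure D5:**
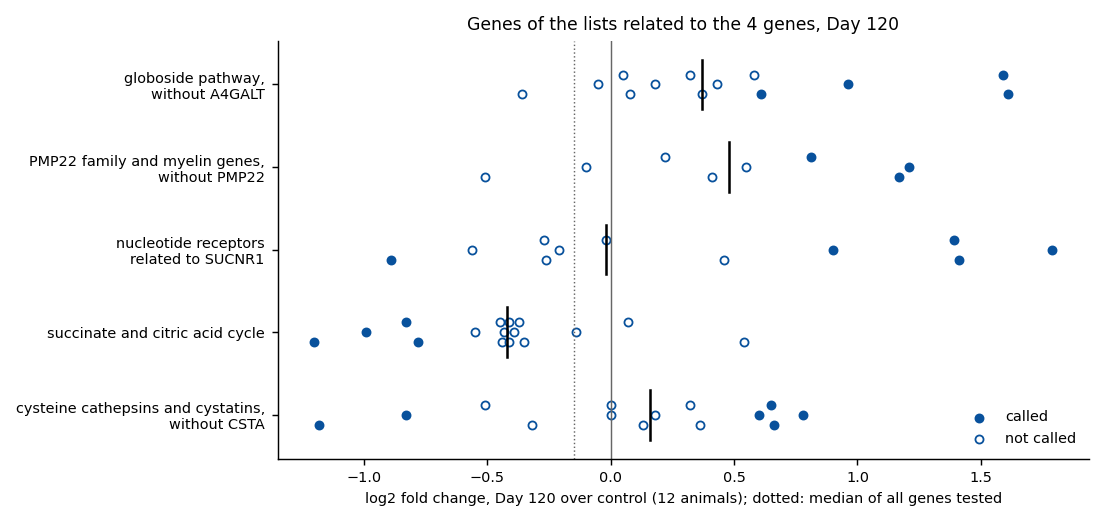
Log2 fold change on Day 120 over control (12 animals) of each tested gene in the 5 lists (filled: called; bars: list medians; dotted line: median of all genes tested, -0.15). The 4 called genes of the succinate list are all lower, the called genes of the globoside and PMP22 lists are all higher, and the other lists hold both. Of all genes tested, 12.7% were called higher and 19.1% lower on that day.

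The genes most like each of the 4 were named by the Pearson correlation of their daily means (16 values) and, apart from this, of single samples after day and animal means were taken out (296 samples). These points share libraries, depth and animals and are given as a description. By daily means CSTA was most like SPTSSA (0.97), a subunit of serine palmitoyltransferase, the lactate dehydrogenase gene LDHA (0.95) and the sphingomyelin synthase gene SGMS2 (0.95), whose median went from 10.3 CPM in control to 78.99 on Day 120. Within days and animals CSTA was most like LDHA (0.70), the thioredoxin gene TXN (0.68) and the calgranulin gene S100A8 (0.68). SUCNR1 was most like WDR41 (0.91), FRRS1 (0.90) and WSB2 (0.89) by daily means. Within days and animals it was most like EPX (0.60, and 0.57 without B1003), the nucleoside transporter gene SLC29A1 (0.57) and the leukotriene receptor gene CYSLTR2 (0.49). PMP22 was most like GPRIN2 (0.84), GAS6 (0.83) and ATF3 (0.82) by daily means, and MS4A7 (0.41), PRR5L (0.38) and HTR7 (0.37) within days and animals. A4GALT was most like SMIM29, MYADM (both 0.97) and the histone methyltransferase gene KMT5C (0.96), and within days and animals like ZBTB7B (0.74), DOK3 (0.72) and TTYH3 (0.71). No gene was named for more than 1 of the 4, and among themselves, within days and animals, the highest correlation was 0.36, of SUCNR1 with PMP22. Without B1003 that of SUCNR1 with PMP22 was 0.28, and over all animals that of CSTA with A4GALT was 0.27. By daily means the correlation was 0.80 for CSTA with A4GALT and 0.68 for CSTA with SUCNR1.

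Marker lists of blood cells moved with the 4 genes to different degrees. Within days and animals, CSTA correlated most with the summed monocyte markers (0.48), SUCNR1 with the eosinophil markers (0.48), A4GALT with the neutrophil (0.48) and monocyte markers (0.43), and PMP22 with the eosinophil markers (0.32). The neutrophil sum was 661 to 6370 CPM in controls (median 2363) and 2426 to 12970 on Day 120 (median 4316), with 4 of 5 tested markers called higher. The monocyte sum had medians of 1595 (649 to 4526) and 2884 (1660 to 5706), with 4 of 6 called. The eosinophil sum had medians of 22.4 (5.48 to 129) and 48.3 (4.61 to 95.4), with 0 of 3 called. On Day 90, when SUCNR1 was highest, the eosinophil sum was at a median of 57.5 CPM (22.9 to 260) with 3 of 3 called higher, and on Day 3, 2 of 3 were called higher. The B cell sum went from a median of 1066 to 217 CPM, with 5 of 5 called lower. On Day 3, when CSTA, SUCNR1 and PMP22 were already higher, the macrophage sum was at a median of 69.1 CPM (29.1 to 338) against 9.53 in controls (4.44 to 46.2), and on Day 30 it was at 9.66. Other lists also moved on Day 3, with 5 of 6 monocyte (median sum 2407 CPM), 4 of 4 platelet (1137 in controls, 2605) and 5 of 5 erythroid markers (6071 in controls, 9777) called higher and 5 of 5 B cell markers called lower. The part of these cells in the levels of the 4 genes was not tested. The keratinocyte sum, checked because CSTA is a skin gene and blood was drawn by lancing the skin, was 7.41 to 19.3 CPM in controls and 4.86 to 34.9 on Day 120, with medians of 10.6 and 9.22 and 1 of 3 tested markers called higher on Day 120. KRT1 and DSG3 were at 0 in all controls, and CSTA correlated at -0.13 with the sum.

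Per kilobase of exon, which allows levels of different genes to be compared, A4GALT was highest in controls with a median of 11.65 CPM per kb, followed by CSTA (1.79), SUCNR1 (0.681) and PMP22 (0.174). On Day 120 A4GALT was at 21.45 CPM per kb (9.56 to 43.7) and CSTA at 12.8 (5.01 to 88.7), whose ranges overlapped on that day but not in controls.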

How the data were processed

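Whole blood was lysed in RNA protect tubes, depleted of ribosomal RNA and sequenced as stranded libraries. The authors trimmed reads with cutadapt 2.10, aligned them to Mmul_10 with STAR 2.7.6a and counted them per RefSeq gene with Subread 2.0.1, and they deposited the counts as whole numbers, not normalized. Whether counting used the strand is not given in the sources used here. The authors also deposited a table of log2 values for 16730 genes after upper quartile scaling, which was used only as an alternative. In that table a given count in a sample had the same log2 value in every gene (0 of 409069 count values shared by several genes had more than 1), so it held no correction per gene.

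The members and gene lists were chosen with earlier results of these data known. After upper quartile scaling, the genes that reached 3 counts in 80% of the samples or more were fitted in R 4.3.3 by the quasi-likelihood method of edgeR 4.0.16, with the animal as a block in comparisons of days, since same-named samples came from the same animal. Comparisons of dose, sex, library number range and follow-up used the samples of the days named. Adjusted p-values are Benjamini-Hochberg over all 13751 genes tested, and a call also needed a fold of at least 1.5, except for follow-up. A prior count of 2 was added for log2 CPM, and CPM below a few reads is limited by counting error. Since each animal gave 1 sample a day, p-values rest on the spread between animals. Where the animal was a block, they rest on the spread of the changes within animals. The fits were tested on simulated data.

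Alternatives were TMM scaling, DESeq2 1.42.0, no filter on low counts, no block, the library number range as a covariate, the deposited log2 values and leaving out animals. The comparison of doses in controls, that of the step from Day 60 to Day 90, and the settings without B1003, B1503 on Day 60, B2007 on Day 40 or B1502 on Day 150, as the change from control, and with the number 0 only were added after the data were seen. Genes named were the members, the 3 most like each by each measure, up to 3 called genes of largest change per list on Day 120, and per marker list the highest marker and those at 0 in all controls. Other genes were named after their values were seen. Some list genes are not reported here by name. Per marker list the highest marker was CSF3R (neutrophil), EPX (eosinophil), GATA2 (basophil and mast cell), VCAN (monocyte), C1QB (macrophage), CD1C (dendritic cell), CD79A (B cell), CD3E (T cell), NKG7 (natural killer cell), ALAS2 (erythroid), PPBP (platelet), KRT10 (keratinocyte) and COL1A1 (fibroblast and endothelium). Figures were drawn with Matplotlib 3.10.9.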

Additional observations from a re-analysis of the deposited data

Results flagged for a closer look

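In groups of 4 to 10 samples, the highest or lowest value of a gene was compared with its neighbour by Dixon's gap test in 20 groups, and 2 stood apart, where chance gives about 1 in 20 groups. SUCNR1 on Day 210 was 17.2 CPM in B1502, while the other 5 animals lay between 3.21 and 3.95. PMP22 on Day 150 was 7.51 CPM in B1003, while the other animals lay between 0.00 and 0.748, and in the same library SUCNR1 was 318 CPM.

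The change from control to Day 60 differed between doses for CSTA and A4GALT. HD animals B2002, B2003, B2505 and B2508, for which Day 60 was the last draw, are among those compared. The log2 difference of HD and LD animals was 2.21 for CSTA (edgeR adjusted p = 0.00148, higher than control in 9 of 9 HD and 11 of 12 LD animals) and 0.74 for A4GALT (adjusted p = 0.0204, higher in 8 of 9 and 8 of 12).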

How the results depend on the processing

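The log2 fold changes of the 4 genes by day moved by no more than 1 SD of the changes of single animals in all 524 recomputed values. This limit is wider than the standard error of a fold, and the shifts with the library number range given above fall within it. Of the recomputed test results 159 kept their direction and side of the threshold while 9 changed sign. The dose difference of PMP22 on Day 60 (0.03) was -0.67 as the change from control, -0.02 with the library number range as a covariate, -0.03 with the number 0 only and -0.02 without B1503. The slope of SUCNR1 on Day 30 with follow-up was -0.0031 by DESeq2, -0.0021 with TMM, -0.00016 without the filter and -0.13 in HD animals only. The unscheduled difference of CSTA (-0.08) was 0.05 with no replicate block (animal), and the block ended no call in the tests. The cause was not tested. Counts of called list genes moved in 10 cases and stayed in 150: the PMP22 list had 2 higher on Day 3 by DESeq2, with TMM and without the filter (1), 2 on Day 30 (1) and 5 on Day 120 (3) without the filter; the cathepsin list had 1 higher on Day 90 by DESeq2 (0); and the succinate list had 1 higher on Day 120 by DESeq2, with TMM and without the filter (0) and 0 lower on Day 30 without the block (1). Over all genes, DESeq2 called 2189 genes on Day 240 against 930 and 2383 on Day 270 against 1, and in the dose comparison of Days 30 and 40 it called 41 against 7 by edgeR and 0 with TMM. The unscheduled pairs all shared a library number range, so no separate value for that setting exists. PMP22, with a median of 5.5 reads in controls, is the gene most limited by depth.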
